A study of Mus musculus with 21 samples.

Results

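PRDM9 and 5 genes whose products work with it, Zcwpw1, Hells, Ewsr1, Cxxc1 and Cdyl, were followed in germ cells of young male mice. These 6 genes were found by symbol among the 37620 genes of a deposited RNA-seq table, and each had 1 row. The study compared PRDM9 binding sites on naked DNA with recombination hotspots in spermatocytes, and measured RNA to relate hotspot density to gene expression. All RNA came from C57BL/6J (B6) males at 12 dpp (days post partum), as germ cells enriched by digesting testes with collagenase and trypsin and labelled spermatocytes. The table held 12 libraries, 3 for each of the sample numbers 186wt, 343wt, 444wt and 456wt, which makes 4 numbers. No mutant, other strain or other age was among them, so the sample number was the only factor that could be compared. The labels do not say whether a number is 1 mouse or a pool.

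PRDM9 is a meiosis-specific histone methyltransferase that binds DNA through a long array of zinc fingers and marks nearby nucleosomes with H3K4me3 and H3K36me3. These marks place the double-strand breaks that start recombination. ZCWPW1 reads that pair of marks and is needed for break repair, HELLS is a chromatin remodeller that opens the sites PRDM9 binds, and EWSR1, CXXC1 and CDYL are proteins reported to bind PRDM9.

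Prdm9 (ENSMUSG00000051977) lies at chr17:15680043-15701318 on the minus strand of NCBI build 37, the build of the deposited values. The array is the part of the gene that sets where PRDM9 binds, and it is coded in the last of 10 exons, where the 11 units described below lie at chr17:15680937-15681854. The coding sequence has 847 codons. A search for the full C2H2 zinc finger pattern found 11 tandem units of 84 bases, the last of which is cut to 78 bases by the stop codon. The 84 bases just before them, from codon 515, match that pattern except for its first cysteine and are 72.6% identical to the consensus of the units, so that the array has 12 units when this one is counted. Among the 10 full units there were 6 distinct sequences, which differed at 6 positions. The lowest identity between 2 full units was 94.0%, with a median of 96.4%. Numbered from the first full match, units 1, 2, 6 and 7 are shown in coding orientation, 5′ to 3′, with the 6 variable positions in capitals, because they show how few bases set the fingers apart. Unit 2 (chr17:15681687-15681770) has the same sequence as unit 3, and unit 6 (chr17:15681351-15681434) has that of units 8 and 9.
Unit 1: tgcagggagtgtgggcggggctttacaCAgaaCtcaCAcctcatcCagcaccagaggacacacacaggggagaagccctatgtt
Unit 2: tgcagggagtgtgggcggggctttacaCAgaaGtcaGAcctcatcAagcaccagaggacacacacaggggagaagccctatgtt
Unit 6: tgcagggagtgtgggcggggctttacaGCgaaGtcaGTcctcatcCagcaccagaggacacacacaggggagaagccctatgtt
Unit 7: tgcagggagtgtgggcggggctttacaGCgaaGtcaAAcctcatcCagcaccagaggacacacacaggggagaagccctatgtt

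This repetition bears on where within the gene a read can be placed. Of the 3361 windows of 100 bases, the read length, along the longest coding transcript of Prdm9, 420 occur more than once in that transcript, and 0 occur in an annotated transcript of another gene. All 420 lie in the array, where they make up 51.3% of its 819 windows. Windows of Hells, Cxxc1 and Cdyl were likewise shared with 0 other genes.

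Zcwpw1 (chr5:138229026-138263849, plus strand) and Ewsr1 (chr11:4969692-4999269, minus strand) overlap genes on the opposite strand. Pilra covers 18.4% of the exon bases of Zcwpw1, and 17.5% of its windows also occur in Pilra, which had a mean of 0.403 FPKM (fragments scaled to transcript length and to library size). Rhbdd3, at 24.7 FPKM, covers 4.37% of the exon bases of Ewsr1 and shares 6.39% of its windows. A strand setting was not given in the sources used here, so reads of these stretches cannot be told apart.

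Promoters are shown for the meiosis-specific pair Prdm9 and Zcwpw1 and for Hells. These genes were highest in the same sample number below, as were Ewsr1, Cxxc1 and 36.3% of all genes tested. The promoters are RefSeq sequences of 250 bases before to 50 bases after a start site (GRCm38.p6), and each matched build 37 exactly once. The searched motifs, on both strands, were CNCCTCAG (bound by STRA8, the factor that switches on the meiotic programme), TTCCCGC (an E2F core), the NRF1 motif and TGACGTCA (the cAMP response element), and matches are in capitals. The Prdm9 promoter shown (chr17:15701269-15701568, minus strand) is that of transcript ENSMUST00000139911, not of the longest coding transcript described above. It holds an E2F core that overlaps a STRA8 motif by 1 base, a second STRA8 motif after the start site, and an NRF1 motif on the opposite strand. An NRF1 motif ends just before the start site in the promoter of Zcwpw1 (chr5:138228780-138229079, plus strand), and that of Hells (chr19:39005230-39005529, plus strand) has an E2F core.
Prdm9: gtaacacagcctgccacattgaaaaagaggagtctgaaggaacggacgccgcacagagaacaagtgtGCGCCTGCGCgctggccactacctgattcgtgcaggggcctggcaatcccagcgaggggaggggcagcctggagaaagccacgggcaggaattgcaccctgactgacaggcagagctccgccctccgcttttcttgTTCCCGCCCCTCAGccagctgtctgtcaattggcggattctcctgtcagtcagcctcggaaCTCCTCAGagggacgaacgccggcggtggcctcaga
Zcwpw1: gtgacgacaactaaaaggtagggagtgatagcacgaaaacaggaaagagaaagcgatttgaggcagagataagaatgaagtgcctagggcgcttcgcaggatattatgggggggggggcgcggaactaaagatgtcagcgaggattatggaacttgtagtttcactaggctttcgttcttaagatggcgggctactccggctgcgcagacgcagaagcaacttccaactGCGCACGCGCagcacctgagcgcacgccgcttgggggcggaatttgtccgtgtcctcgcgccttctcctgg
Hells: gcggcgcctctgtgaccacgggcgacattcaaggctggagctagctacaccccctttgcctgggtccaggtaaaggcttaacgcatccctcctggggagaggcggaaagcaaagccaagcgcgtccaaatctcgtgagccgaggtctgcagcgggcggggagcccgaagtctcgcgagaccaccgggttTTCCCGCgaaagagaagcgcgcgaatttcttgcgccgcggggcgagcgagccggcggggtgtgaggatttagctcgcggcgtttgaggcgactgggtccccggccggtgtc
Of 32851 mouse promoters of this length, 7.94% held the STRA8 motif, 4.60% the E2F core, 4.60% the NRF1 motif and 1.79% the cAMP response element. A match describes letters and not a bound site. The other Prdm9 promoter (chr17:15700246-15700545), whose start site lies 8 bases from that of the longest coding transcript, held none of the 4 motifs. The other start site given for Zcwpw1 and those of Cdyl also held none, whereas that of Ewsr1 held an NRF1 motif. The promoter of Cxxc1 was not searched.

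All 12 libraries had similar depth. Estimated from the steps between low FPKM values, it was 13.0 to 18.2 M (mega) fragments in a library and 42.1 to 51.4 M in a number. The defining markers of the labelled cells were present: all 11 genes of the synaptonemal complex and meiotic cohesin were detected, with a summed level of 387 to 630 FPKM in a number. Markers of later stages were low, and Prm2, a sperm protamine, was at 0 in all libraries. Markers of other testis cells were also present, among them 8 of Sertoli cells, the somatic nurse cells of the tubule, which summed to 2331 to 4169 FPKM. The libraries thus also held RNA of somatic cells.

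Prdm9 was the lowest of the 6 members and Ewsr1 the highest. Each level is a mean ± SD over the 4 numbers after its 3 libraries were averaged. Ewsr1, an RNA-binding protein of the FET family, had 275 ± 31.7 FPKM (n = 4), a level above that of 99.5% of all genes in the table. Hells had 129 ± 25.9 FPKM and Zcwpw1 80.6 ± 20.3 FPKM. The level of Cxxc1, the CpG-binding subunit of the SETD1 methyltransferase complexes, was 60.9 ± 8.29 FPKM. Cdyl, a chromodomain corepressor that reads repressive histone marks, had 24.0 ± 1.22 FPKM. Prdm9 itself had 13.2 ± 1.24 FPKM and was above 80.9% of all genes.

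This order held in each of the 4 numbers. Exact paired permutation tests (two-sided, sign flips over 4 numbers) gave p = 0.125 for each of the 5 pairs of neighbours, the smallest p that 4 numbers allow, so none could pass 0.05. Across numbers, the levels of 2 pairs of neighbours overlapped: the highest Zcwpw1 level (110 FPKM) exceeded the lowest Hells level (106 FPKM), and the highest Cxxc1 level (71.7 FPKM) exceeded the lowest Zcwpw1 level (63.9 FPKM). Within a number, Zcwpw1 was 1.21 to 1.54 times as high as Cxxc1, the narrowest gap, and Ewsr1 was 1.85 to 2.72 times as high as Hells. FPKM are per length, so these compare transcript levels and not protein. Hells lies at chr19:39005405-39045541, Cxxc1 at chr18:74375785-74381145 and Cdyl at chr13:35751731-35965933, all on the plus strand, and none of their exons overlaps an exon of another gene.

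**Figure D1:**
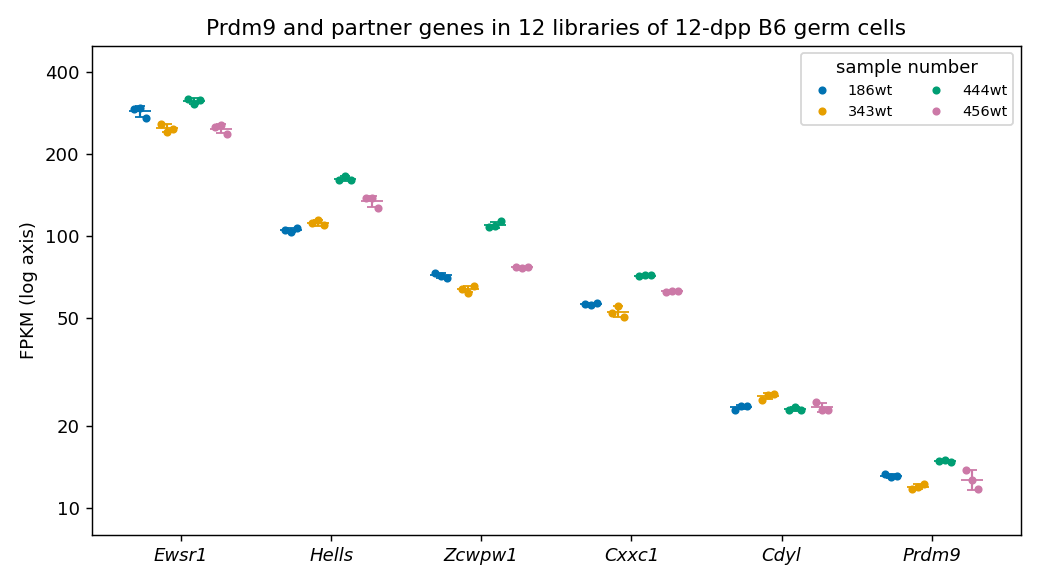
FPKM (log axis) of the 6 members in each library, coloured by sample number, where points are libraries and bars are the mean ± SD of the 3 libraries of a number. Prdm9 lies between 11.7 and 15.03 FPKM and Ewsr1 between 237 and 320 FPKM, and 444wt is the highest number for every member except Cdyl.

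The partners did not keep a fixed ratio to Prdm9. Ewsr1 stayed closest to 1 ratio, at 21.8, 20.7, 21.0 and 19.5 times the Prdm9 level in 186wt, 343wt, 444wt and 456wt. Zcwpw1 was 5.44, 5.32, 7.37 and 6.02 times as high as Prdm9, with the top value in 444wt. The ratio of Hells to Prdm9 was lowest in 186wt, at 8.002, and 9.31, 10.9 and 10.5 in the others. Cxxc1 was 4.27 to 4.92 times as high and Cdyl 1.55 to 2.15 times as high.

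All 6 members differed between the sample numbers in a limma F-test on log2(FPKM + 0.1) with Benjamini-Hochberg adjustment over all genes tested, but so did 58.2% of the 20795 genes tested. A share this high means that a call on its own says little about a member. The study's methods give 4 replicates, so the 3 libraries of a number may be repeat libraries of 1 RNA. For Prdm9, Zcwpw1, Cxxc1 and Cdyl the spread within a number, pooled over the 4 numbers, was 0.931 to 1.19 times the counting error of the estimated fragments. For Hells and Ewsr1 it was 3.19 and 3.65 times that error. The p-values therefore compare these 4 samples, against a spread that may be technical. In samples of mixed cells, fewer cells of a type and less RNA per cell cannot be told apart.

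Prdm9 was 13.42, 12.98 and 13.18 FPKM in the libraries of 186wt, 11.79, 12.02 and 12.26 in 343wt, 14.94, 15.03 and 14.82 in 444wt, and 13.81, 12.71 and 11.73 in 456wt. The libraries of 444wt were above all 9 others. Those of 456wt spread widely (SD 1.04 FPKM, against 0.105 to 0.235 in the other numbers) and overlapped both 186wt and 343wt. Each library held about 582 to 787 Prdm9 fragments, for a counting error of 3.84%, against a CV of 9.34% between numbers. On the log2 scale, 444wt exceeded 343wt by 0.31 ± 0.05 (SE, limma adjusted p = 4.33e-04). It also exceeded 186wt and 456wt, while no difference among 186wt, 343wt and 456wt passed the test. For all 4 numbers together the adjusted p was 0.00188. The result rests on 444wt, since without it the widest difference was 0.13 (limma adjusted p = 0.190), and without the libraries numbered 2 the adjusted p was 0.0647.

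Zcwpw1 moved most. It had 71.7, 63.9, 110 and 76.7 FPKM in 186wt, 343wt, 444wt and 456wt. All 6 pairs of numbers differed (limma adjusted p of 0.0122 or lower), and 444wt exceeded 343wt by 0.78 ± 0.03 on the log2 scale (adjusted p = 1.09e-09), a fold of 1.72. Hells had 106, 112, 163 and 134 FPKM, and 444wt exceeded 186wt by 0.62 ± 0.03 (limma adjusted p = 4.09e-08). Hells did not differ between 343wt and 186wt by the test, with a difference of 0.08 and a 95% interval of 0.01 to 0.16 (adjusted p = 0.0981).

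Ewsr1 and Cxxc1 moved less. Ewsr1 had 287, 249, 314 and 248 FPKM, and the libraries of 343wt and 456wt overlapped, with a difference of -0.01 and a 95% interval of -0.09 to 0.08. Its largest difference was between 444wt and 456wt, 0.34 ± 0.04 on the log2 scale (limma adjusted p = 4.79e-05). Cxxc1 had 56.3, 52.8, 71.7 and 62.7 FPKM, and 444wt exceeded 343wt by 0.44 ± 0.03 (limma adjusted p = 2.20e-07).

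Cdyl went the other way. It had 23, 23.78 and 23.83 FPKM in 186wt, 25.07, 26.14 and 26.28 in 343wt, 22.96, 23.55 and 22.96 in 444wt, and 24.61, 23.02 and 23.02 in 456wt. The libraries of 343wt were the 3 highest, and the other numbers overlapped one another. The level in 444wt was lower than in 343wt by 0.16 ± 0.03 on the log2 scale (-0.16, limma adjusted p = 0.00290), and 456wt and 186wt were also lower than 343wt. Without 343wt the widest difference was 0.024 (adjusted p = 0.807). Leaving out the libraries numbered 2 or 3 also ended the call, with adjusted p-values of 0.101 and 0.136 over the numbers.

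For 4 of the 6 members the range over the numbers was smaller than that of the median gene. The median range of all genes tested was 0.55 on the log2 scale. Zcwpw1 (0.78) and Hells (0.62) were above it, whereas Cxxc1 (0.44), Ewsr1 (0.34), Prdm9 (0.31) and Cdyl (0.16) were below. Against genes that averaged 1 FPKM or more, or with a pseudocount of 1, the median range was 0.42 and 0.34, and Cxxc1 was then above it, which leaves 3 members below. Of all genes tested, 6.51% had a narrower range than Cdyl, and 24.7% had a narrower range than Prdm9.

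**Figure D2:**
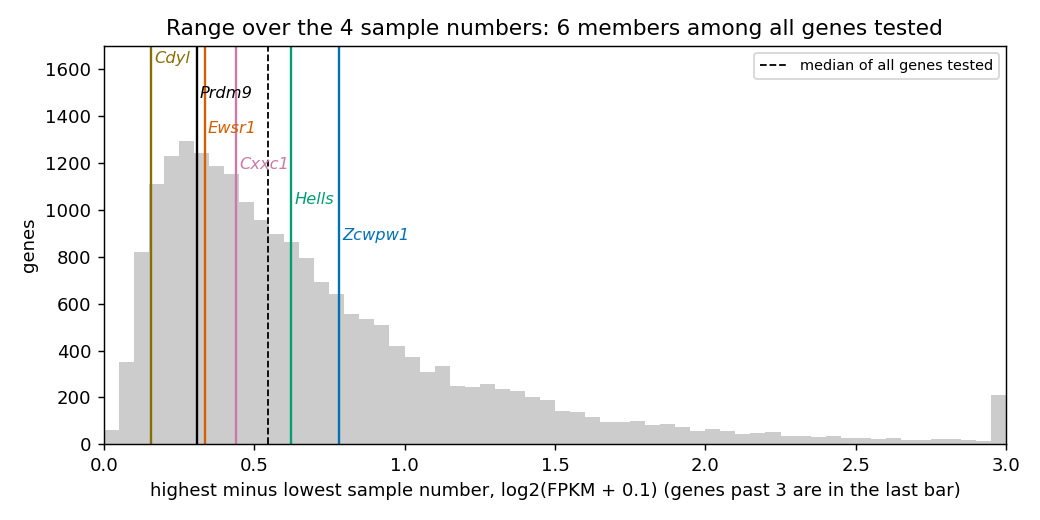
Number of genes (y axis) by the highest minus the lowest sample number on the log2(FPKM + 0.1) scale (x axis), for the 20795 genes tested, with the 6 members as coloured lines and the median gene, 0.55, dashed. Cdyl lies near the lower edge at 0.16 and Zcwpw1, the widest member, at 0.78.

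Of the 6 members, 5 were highest in 444wt, as were 36.3% of all genes tested, and Cdyl was highest in 343wt, as were 17.7%. In the contrast of 444wt with 343wt, 5 members were higher in 444wt, against 30.4% of genes tested, and Cdyl was lower, against 17.5%. The median of all genes was itself 0.14 higher in 444wt on the log2 scale. In the other contrasts with 444wt, 5 members were higher than in 186wt (26.1% of genes tested) and 0 lower (16.3%), and 0 were higher in 456wt than in 444wt (15.1%) and 5 lower (13.1%). Dividing by median-ratio factors lowered the median shift between 444wt and 343wt to 0.04. In that contrast it moved the calls over all genes from 6323 higher and 3635 lower to 4550 higher and 4680 lower. The same 5 members stayed highest in 444wt, as were 6287 of the 20774 genes tested under this scaling.

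The 3 numbers other than 444wt differed in fewer members. Between 343wt and 186wt, Cdyl was higher in 343wt (9.93% of genes tested were) and Zcwpw1, Ewsr1 and Cxxc1 lower (10.5%). Against 186wt, 456wt had higher Zcwpw1, Hells and Cxxc1 (25.9%) and lower Ewsr1 (15.5%). Against 343wt, it had the same 3 members higher (27.6%) and Cdyl lower (14.2%). No member was highest in 456wt or 186wt, where 27.5% and 18.5% of genes tested had their top level.

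The members were also set against genes of the meiotic chromosome axis. Subtracting the median of the synaptonemal complex and meiotic cohesin genes in the same library moved the 444wt minus 343wt difference of every gene alike, by -0.72 on the log2 scale, so the signs that follow come from the reference. Prdm9 was then at -1.59 in 444wt and -1.19 in 343wt, a difference of -0.41 (limma adjusted p = 2.71e-05), and the differences were -0.39 for Ewsr1, -0.28 for Cxxc1, -0.18 for Hells and -0.87 for Cdyl. These 5 passed the test as lower in 444wt, as did 62.2% of genes tested, and the median gene was at -0.58. Zcwpw1 was at 1.28 in 444wt and 1.22 in 343wt (0.06, adjusted p = 0.0553). It was highest in 444wt, as were 5.29% of genes tested, and the other 5 members were highest in 343wt, as were 68.9%. Relative to the median gene, all members but Cdyl were higher in 444wt than in 343wt. A shift common to all genes cannot change this, so the second reference adds no support.

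**Figure D3:**
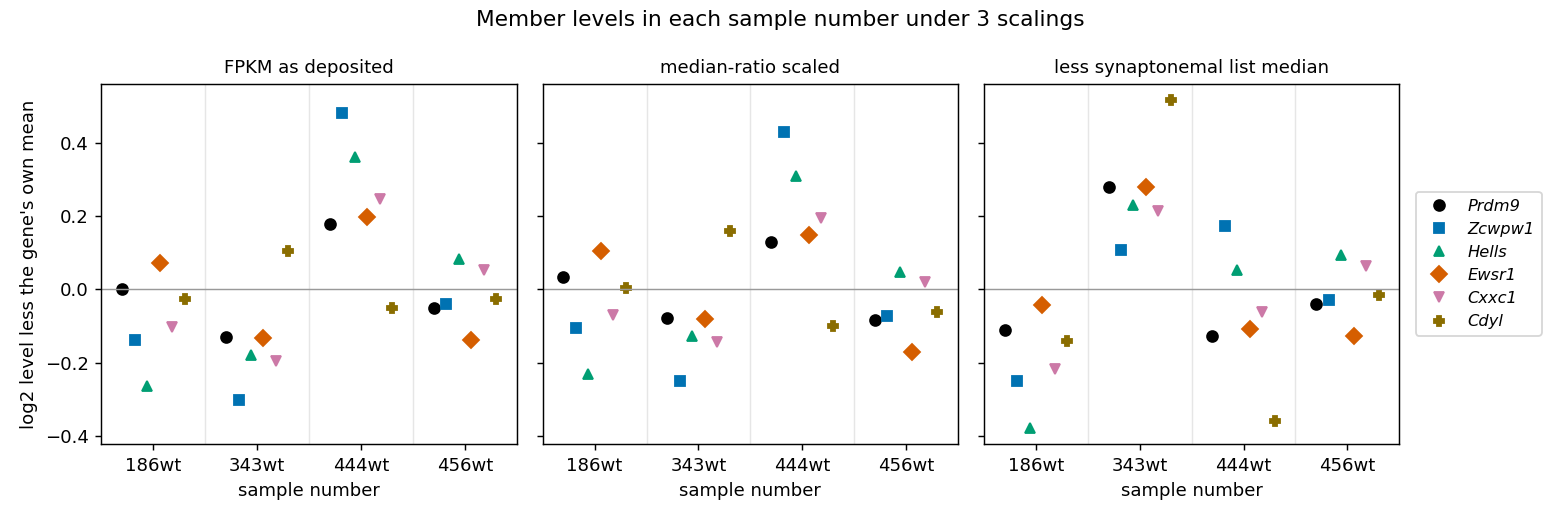
Level of each member in each sample number less the gene's own mean (log2, y axis), as deposited, after median-ratio scaling and relative to the synaptonemal list. In the first 2 panels all members but Cdyl are highest in 444wt, and in the third all but Zcwpw1 are highest in 343wt, as were 68.9% of all genes tested.

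All 20 measured genes of break formation and strand exchange differed between numbers (58.2% of genes tested did) and all 20 were highest in 444wt (36.3%), with a median 444wt minus 343wt difference of 0.76, against 0.31 for Prdm9. After median-ratio scaling all 20 were still highest there (6287 of 20774 genes tested were), with a median of 0.65. Among them, Spo11, the enzyme that makes the breaks, had 6.79, 2.82, 7.19 and 5.06 FPKM in 186wt, 343wt, 444wt and 456wt. Tex11 (mean 44.6 FPKM) and Hormad1 (43.1 FPKM), which licenses breaks on the chromosome axis, had the highest means of the list, both above Prdm9. The widest ranges were those of 4930528F23Rik (Meiob, 1.57), Spo11 (1.34) and Msh5 (1.19). Ankrd31, Rec114 and Mcmdc2 were not matched in the table.

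The 11 genes of the synaptonemal complex and cohesin also all differed (58.2% of genes tested did). Of them, 10 were highest in 444wt (36.3%), with a median difference from 343wt of 0.72. Stag3 (92.9 FPKM), Syce2 (77.9 FPKM) and Sycp3 (73.1 FPKM) had the highest means of this list, near the level of Zcwpw1. Its widest ranges were those of Sycp2 (0.97), Rad21l (0.86) and Smc1b (0.82). Rec8, the meiotic cohesin kleisin, was the exception and was highest in 186wt, at 27.0 FPKM against 17.6 to 19.2 in the others.

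The list of partners and paralogs of the members had a smaller median range, 0.37, than the break genes, 0.76, and the synaptonemal genes, 0.72. Of the 19 genes on this list, 18 differed between numbers (58.2% of genes tested did), and 13 were highest in 444wt (36.3%). From 343wt to 444wt, 14 rose (30.4% of genes tested did) and 5 fell (17.5%), with a median of 0.20. After median-ratio scaling, 11 of the 19 were highest in 444wt (6287 of 20774 genes tested were) and the median was 0.10. Taf15, a paralog of Ewsr1, had 62.9 FPKM and a range of 0.75. Ehmt2, a H3K9 methyltransferase reported to bind PRDM9 together with CDYL, had 155 FPKM, and Wdr5, a subunit shared by SETD1 and MLL complexes, had 73.1 FPKM.

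Zcwpw2, the paralog of Zcwpw1, was low, with 5.81, 3.84, 7.74 and 5.03 FPKM. It shared the order of Prdm9 over the numbers, in which 444wt was highest and 343wt lowest, as did others of the list, such as Taf15. Morc2b had the widest range of the list, 1.57, at 1.28, 0.850, 0.413 and 1.42 FPKM, and was lowest in 444wt. A physical link of Morc2b to a member was not tested. Cdca7, which pairs with HELLS in nucleosome remodelling, had 42.4, 45.2, 66.7 and 62.6 FPKM. Like Hells, it was higher in 444wt and 456wt than in 186wt and 343wt, as were others of the list, such as Ehmt2 and Wdr5. Unlike Hells, Cdca7 did not differ between 444wt and 456wt (limma adjusted p = 0.437). Rest, a repressor that CDYL binds, was the 1 gene of the list that did not pass (limma adjusted p = 0.0847).

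**Figure D4:**
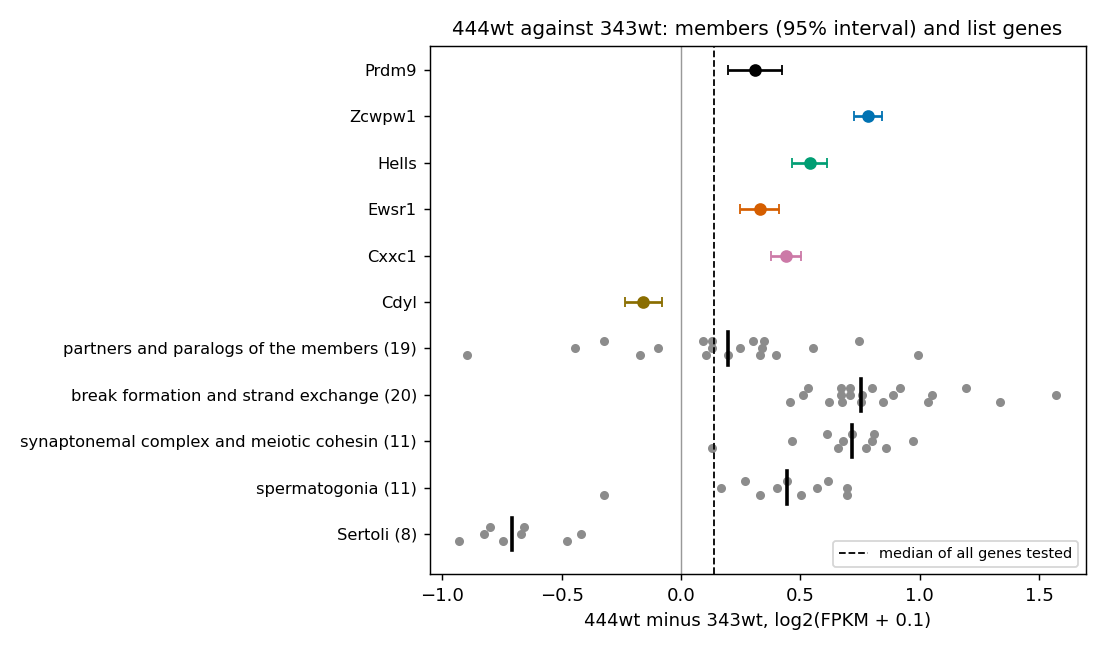
Difference between 444wt and 343wt on the log2(FPKM + 0.1) scale (x axis) for the 6 members, with 95% intervals, and for single genes of 5 lists (grey points, with list medians as black bars and the number of genes in brackets). The break and synaptonemal lists have medians of 0.76 and 0.72, to the right of every member except Zcwpw1, and all 8 Sertoli genes lie below 0.

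Markers of other cell types also differed between the numbers. The 8 Sertoli markers all differed (58.2% of genes tested did) and were all lower in 444wt than in 343wt (17.5%). Their summed level was 4030, 4169, 2331 and 2502 FPKM in 186wt, 343wt, 444wt and 456wt, with Clu as the highest gene (2289, 2380, 1251 and 1456 FPKM). Between 456wt and 444wt, 3 Sertoli markers were higher in 456wt (15.1% of genes tested were) and 3 lower (13.1%). The 11 spermatogonial markers, led by Uchl1 (371 FPKM), summed to 696, 736, 1003 and 876 FPKM. Of these, 9 were highest in 444wt (36.3% of genes tested were), among them Stra8, with 77.8, 89.1, 145 and 99.1 FPKM. The 5 Leydig markers, led by Hsd3b1 (15.6 FPKM), summed to 54.997, 107, 15.8 and 59.9 FPKM, and the 5 macrophage markers, led by Mrc1 (5.53 FPKM), to 11.003, 19.9, 5.25 and 14.7 FPKM. Both lists were highest in 343wt, where Cdyl was highest, and lowest in 444wt.

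The 5 peritubular myoid markers, led by Acta2 (473 FPKM), summed to 533, 253, 670 and 1112 FPKM, and the 5 endothelial markers, led by Cdh5 (9.68 FPKM), to 16, 20.9, 13.3 and 33.5 FPKM. Both were highest in 456wt, where no member was. The 9 pachytene and spermatid markers, led by Piwil1 (6.50 FPKM), summed to 11.2, 11.2, 9.25 and 18.1 FPKM, lowest in 444wt. This sum follows the higher genes of the list and does not hold gene by gene. Of the 6 that were tested, 5 differed (58.2% of genes tested did). By top level, 3 of the 6 were highest in 444wt (36.3% of genes tested were) and 3 in 456wt (27.5%). The part of cell composition in the member differences was not tested.

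**Figure D5:**
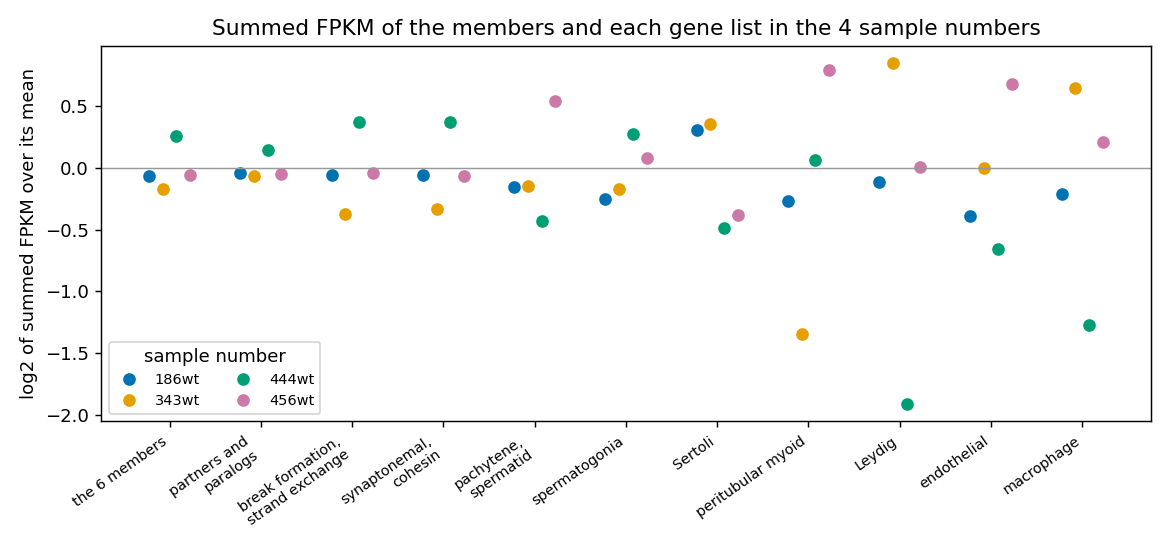
Summed FPKM of the members and of each list in the 4 sample numbers, as the log2 ratio to its mean over the numbers (y axis). The 6 members sum to 696 FPKM in 444wt and 516 to 558 in the other numbers. The Leydig and macrophage sums are lowest in 444wt, and the Sertoli sum is low in both 444wt (2331 FPKM) and 456wt (2502 FPKM).

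For each member, the 3 genes most like it over the 4 numbers were found among the 14348 genes that averaged 1 FPKM or more, by the root mean square (RMS) difference of log2 profiles less their own mean. Prdm9 was most like Tef (RMS difference 0.0045), Trub2 (0.0099) and Dgke (0.011). The profile of Tef was 58.0, 53.0, 65.9 and 55.9 FPKM, in the same order as Prdm9. For Zcwpw1 they were Xlr5b (0.0084), Pacsin1 (0.020) and Itgb3bp (0.020), and for Hells they were Ogg1 (0.0048), Lig1 (0.011) and Rspo4 (0.016). Ewsr1 was most like Ankrd12 (0.0072), Srrm2 (0.0100) and Zfp738 (0.010), and Cxxc1 most like Rnf219 (0.0048), Rbbp8 (0.010) and 2700050L05Rik (0.012). Those of Cdyl were Bbip1 (0.0061), Chmp7 (0.0075) and Enho (0.0082). Of all these genes, Trub2, Zfp738, Bbip1 and Enho did not differ between numbers by the F-test. With 4 points a profile is short, and at most 1 of the 3 genes of any member was named again over the 12 single libraries.

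Among the members themselves, Prdm9 and Ewsr1 had the most similar profiles, with an RMS difference of 0.058. Still, 3.54% of genes were more like Prdm9 than Ewsr1 was. The least alike were Zcwpw1 and Cdyl, at 0.339. Compared with Prdm9, Cxxc1 differed by 0.086, Cdyl by 0.166, Hells by 0.175 and Zcwpw1 by 0.187, and 53.3% of genes were more like Prdm9 than Zcwpw1 was.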

How the data were processed

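RNA-seq of 12 libraries of enriched B6 germ cells at 12 dpp was used, and the other assays of the study were not analysed here. The deposited FPKM were made by the authors, who mapped paired-end reads of 100 bp to build 37 transcripts with BowTie 0.12.9, ran RSEM 1.2.8 and rounded to 2 decimals. RSEM divides ambiguous reads among transcripts, and no counts come with the deposited FPKM.

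Columns were matched to samples by name. Each number is the average of its libraries, and each mean ± SD is over 4 numbers. Values of log2(FPKM + 0.1) were tested between numbers with limma 3.58.1 in R 4.3.3, by lmFit and a trended eBayes. It took genes averaging 0.1 FPKM or more, as an F-test and as 6 pairwise contrasts. Benjamini-Hochberg adjustment was over all these genes, separately for the F-test and within each contrast, with a threshold of 0.05. A difference on this scale understates the change of low genes. Python 3.11.15 (numpy 2.4.6; scipy 1.17.1; pandas 2.3.3; matplotlib 3.10.9) served for the rest.

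Depth was estimated from the steps of low FPKM values and from 77 short genes with a single transcript. The slope for library 1 of 186wt had a 95% interval of 14.4 to 14.7 M fragments. Counting errors cover counting only, with all fragments of a member placed on its longest coding transcript. The depth estimate and the limma F-test were tested on simulated data, and the other statistics were not. Annotation was GENCODE M1 on build 37, and promoters were from RefSeq (GRCm38.p6).

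Named genes were every member, the 3 genes most like each member, the 3 highest and 3 widest genes of each pathway list, and the highest gene and any gene at 0 of each cell type list. Some genes that this rule covers are among those counted but are not reported here by name. Rec8, Stra8, Cdca7 and Rest were named outside this rule, after their values were seen. The members and lists were chosen with earlier results of these data known. Of 102 list entries, 4 were not matched: Rec114, Ankrd31, Mcmdc2 and the Sertoli gene Rhox5. Alternatives were other pseudocounts, filters and scalings, limma without trend, a block for the library suffix, and leaving out libraries or numbers.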

Additional observations from a re-analysis of the deposited data

Results flagged for a closer look

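Of 16 sets of 4 values examined (the 6 members and the sums of 10 lists), 2 had 1 number far from the other 3. Chance alone would set about 1 in 20 apart, or 0.8 of 16. Cdyl in 343wt had 25.8 FPKM, against 23.2 to 23.6 FPKM in the other numbers, and the gap took up 0.853 of its whole range, past the 95% limit for 4 values. The partners and paralogs of the members summed to 1263 FPKM in 444wt, against 1089 to 1108 FPKM in the others, a gap of 0.891 of the range. The Zcwpw1 level in 444wt, at 0.722, and that of Prdm9, at 0.597, stayed under the limit.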

How the results depend on the processing

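Zcwpw1, Hells, Ewsr1 and Cxxc1 passed the F-test under every alternative run. The mean level of each of the 6 members moved by less than 1 SD under the other scalings, the median of libraries, and each number left out. Subtracting the synaptonemal list median, which moves every gene alike, reversed the 444wt minus 343wt difference of 4 members, to -0.41 for Prdm9, -0.39 for Ewsr1, -0.28 for Cxxc1 and -0.18 for Hells, with the median gene at -0.58. When 1 set of libraries or 1 number was left out, the widest difference ran from 0.13 to 0.33 for Prdm9 and from 0.024 to 0.17 for Cdyl, both losing their call in some. With 1 set of libraries left out, the pairs of numbers that differed, 3 of 6 for each, ran from 1 to 3 for Prdm9 and from 0 to 2 for Cdyl. The count of 0 came without the libraries numbered 3, where 2 Cdyl pairs had an unadjusted limma p under 0.05. The count of pachytene and spermatid genes fell from 5 to 3 with a mean of at least 1 FPKM, a filter that leaves out the called genes averaging less. It ran from 2 to 5 when libraries or numbers were left out. The cause of the other changes was not tested. Libraries with the same suffix did not vary together: over 18 pairs the correlation of their deviations was -0.065 to 0.128, and 5 of 12 libraries correlated best with one of their own suffix. With the suffix as a replicate block, 11774 genes differed instead of 12107, all 6 members passed, and the pachytene and spermatid count was 3. The most alike genes were unstable: over 12 libraries 0 to 1 of the 3 named were found again. Depth limits Prdm9 most, with 582 to 787 fragments a library.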
